A study of Mus musculus with 12 samples.

Results

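The genes described here are 9 transcription factors of the oligodendrocyte lineage: Olig1, Olig2, Sox10, Sox8, Nkx2-2, Nkx6-2, Zfp488, Myt1 and Myrf. They were chosen as a list by name, with earlier results of these data known. By symbol they matched 9 of the 49671 Ensembl genes of a raw count table. All 9 passed the filter on low counts that left 17812 genes. RNA came from formalin-fixed, paraffin-embedded mouse brain in 12 libraries, 3 in each of 4 groups. The 9 tumours carry the label N::TVA with homozygous floxed alleles, Cdkn2a and Atrx among them, and are divided by tumour genotype into IDH1_R132H (isocitrate dehydrogenase 1 with a mutation frequent in diffuse glioma), IDH1WT (the same enzyme unmutated) and PDGFA (a growth factor chain that binds the receptor PDGFRA). The 3 normal brains have the same floxed alleles and are marked as TVA negative. TVA is the receptor for avian RCAS viruses, which are used to carry genes into mouse cells that bear it. The labels do not give the promoter that drives TVA, the age of the mice, or if PDGFA was given along with IDH1, and no group holds only tumour cells, since each sample is tissue.

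Oligodendrocytes, the myelin-forming cells of the brain, arise from precursor cells that divide in response to PDGF. OLIG2 and its neighbour OLIG1 are basic helix-loop-helix factors, with OLIG2 needed to set up the lineage and OLIG1 for later maturation. SOX10 and SOX8 are paralogous HMG-box factors that act through the precursor and the myelinating stages. NKX2-2 is a homeodomain factor of precursors and early differentiation, MYT1 a zinc finger protein of precursors, and ZFP488 a zinc finger partner of OLIG2. MYRF switches on myelin genes in cells that leave the precursor stage, and NKX6-2 is a homeodomain factor found in mature myelinating cells. OLIG2 is a standard marker of diffuse glioma.

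Promoter sequence is shown for 3 factors, because Olig2 and Nkx2-2 were high in the tumours while Nkx6-2 was not. RefSeq windows on GRCm38.p6 matched 6 of the 9 factors (Olig2, Sox8, Nkx2-2, Nkx6-2, Zfp488 and Myt1). Of the 250 bases before each RefSeq start, those upstream of the gene's GENCODE exons are given 5′ to 3′ on its strand: 157 for Olig2, 197 for Nkx2-2 and all 250 for Nkx6-2. The Nkx2-2 stretch lies inside the GENCODE gene, in an intron of its longer transcripts and before the start of its shorter ones. Capitals mark an E-box, CANNTG, the kind of site that basic helix-loop-helix factors bind, and CCAAT on either strand, read as ATTGG on the reverse. The stretches are chr16:91225300-91225456 on the plus strand for Olig2, chr2:147186456-147186652 on the minus strand for Nkx2-2 and chr7:139582798-139583047 on the minus strand for Nkx6-2.
Olig2: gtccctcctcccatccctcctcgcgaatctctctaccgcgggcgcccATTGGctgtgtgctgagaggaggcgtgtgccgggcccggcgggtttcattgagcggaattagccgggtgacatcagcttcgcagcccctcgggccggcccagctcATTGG
Nkx2-2: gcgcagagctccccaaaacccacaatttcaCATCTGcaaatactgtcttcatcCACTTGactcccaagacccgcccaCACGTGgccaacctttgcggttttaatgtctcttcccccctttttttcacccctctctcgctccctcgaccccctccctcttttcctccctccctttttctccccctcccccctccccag
Nkx6-2: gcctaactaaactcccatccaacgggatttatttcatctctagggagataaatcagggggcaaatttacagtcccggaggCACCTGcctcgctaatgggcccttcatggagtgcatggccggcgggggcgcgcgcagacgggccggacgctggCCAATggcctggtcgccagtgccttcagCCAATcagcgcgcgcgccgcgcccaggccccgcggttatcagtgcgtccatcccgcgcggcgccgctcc

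The 250-base window of Nkx2-2 held 3 E-boxes, those of Nkx6-2 and Sox8 held 1 each, and those of Olig2 and Zfp488 held 0. Myt1 has 3 windows, with 0, 2 and 1. Of 32851 RefSeq windows of the same length, 66.2% held at least 1 E-box and 33.8% held CCAAT. Olig2 and Nkx6-2 each had 2 CCAAT matches, the windows of Myt1 had 3, 2 and 1, and Nkx2-2, Sox8 and Zfp488 had 0. The letters AAGTG, the core of an NKX2 site on either strand, were found once in the Nkx2-2 window, inside its middle E-box, and in 40.7% of all windows. A SOX-type site, searched as ACAAAG on both strands, was found in none of the windows of these 6 factors and in 16.5% of all windows. A MYRF-type site, CTGGNAC, was found once in the Sox8 window and once in 1 Myt1 window, and in 16.1% of all windows. TATAAA was found once, in the Olig2 window, and in 12.4% of all windows. This match lies 8 bases before the RefSeq start, outside the stretch of Olig2 shown. A match is only a run of letters, and no binding was measured.

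Library totals ran from 6507923 to 14277395 reads. IDH1_R132H tumour 3 had 35.6% of its reads on the single locus Gm42418, against 0.218% to 0.855% in the other 11 libraries, and the lowest scaling factor, 0.506. Normal brains 1 and 2 differed little: their chi-square per gene was 2.43, where sampling noise alone gives 1. Normal brain 3 stood at 27 and 26.1 from them. Pairs of tumours within a group ran from 11.09 (IDH1_R132H tumours 1 and 2) to 311.5 (IDH1_R132H tumours 2 and 3). Nothing in the labels says that libraries come from separate animals, so each p-value reflects only how far these samples spread. Expression is given in CPM, the reads of a gene relative to the library's total after TMM scaling, which evens out library composition. In bulk tissue, fewer cells of a type and less RNA per cell cannot be told apart.

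Against normal brain, 7 of the 9 factors were higher in the tumours and Myrf and Nkx6-2 did not pass the test. The 7 are Olig1, Olig2, Sox10, Sox8, Nkx2-2, Zfp488 and Myt1, with fold differences from 2.57 (Sox8) to 17.5 (Zfp488). With edgeR's quasi-likelihood test and Benjamini-Hochberg adjusted p under 0.05, 3.71% of the 17812 genes were called higher, 1.5% lower and 5.22% in either direction. The median log2 fold change was 2.54 over the 9 factors and -0.01 over all genes tested. For 6 of the 7 (all but Sox8) every tumour stood above every normal brain, which holds for 4.67% of all genes. These edgeR calls need all 3 normal brains: without any single normal brain, 0 of the 9 factors were called. The loss covered the whole table, with 0, 1 and 3 genes of all called without normal brains 1, 2 and 3, so it applies equally to the calls of every gene list given here. Olig2, for example, had log2 fold changes of 3.49, 3.28 and 3.33 without normal brains 1, 2 and 3. The edgeR adjusted p was 0.102, 0.097 and 0.082 in that order. Only edgeR was fitted with a library left out. With all 12 libraries, the adjusted p of Olig2 was 1.3e-13 in DESeq2 and 0.011 in limma on the deposited log2 values.

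**Figure D1:**
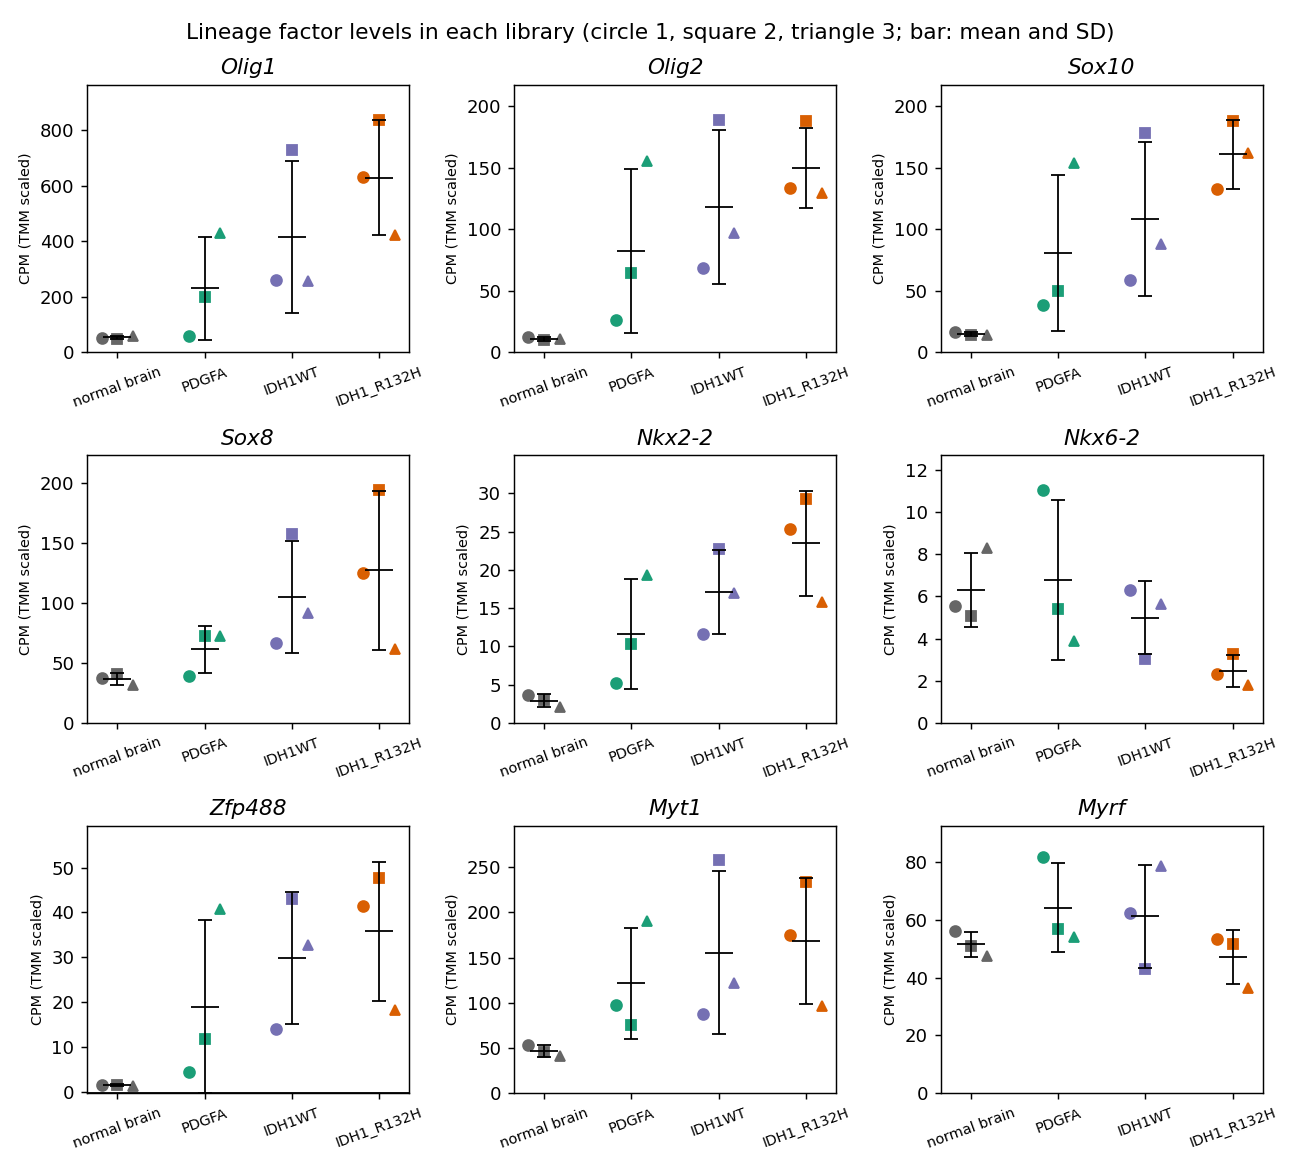
Level of each factor in CPM after TMM scaling (linear vertical axes from 0, or just below it for Zfp488) in the 12 libraries by group, with the group mean and SD as bars. The 9 tumours stand above the 3 normal brains in the panels of Olig1, Olig2, Sox10, Nkx2-2, Zfp488 and Myt1, while Myrf and Nkx6-2 overlap normal brain.

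Olig2, which sets up the lineage (chromosome 16, 91225457 to 91228677) stood at 12.8, 9.66 and 10.4 CPM in normal brains 1 to 3. Its level was 134, 187 and 129 CPM (IDH1_R132H), 68.3, 188 and 96.8 (IDH1WT) and 26.6, 64.2 and 156 (PDGFA). The lowest tumour, PDGFA tumour 1, was thus still above the highest normal brain, and the tumour groups overlapped one another. The difference between tumours and normal brain was 3.37 in log2 units (SE 0.52, 10.3-fold, edgeR adjusted p = 0.012).

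Olig1 lies beside it on the same strand (chromosome 16, 91269772 to 91271933). In normal brains 1 to 3 it was at 52.8, 48.4 and 60.3 CPM. Values were 630, 835 and 422 CPM (IDH1_R132H), 261, 730 and 255 (IDH1WT) and 60.4, 200 and 430 (PDGFA). PDGFA tumour 1, at 60.4 CPM, was barely above the highest normal brain, at 60.3 CPM. The log2 difference was 2.86 (SE 0.56, edgeR adjusted p = 0.019).

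Per kilobase of exon, Olig1 was the most abundant factor in every group, at mean levels per kb of 291 CPM (IDH1_R132H), 192 (IDH1WT), 106 (PDGFA) and 24.9 (normal brain). The ratio of Olig1 to Olig2, both per kb, was 4.82, 5.86 and 6.78 in the normal brains. The tumours had 5.52, 5.21 and 3.83 (IDH1_R132H), 4.47, 4.53 and 3.09 (IDH1WT) and 2.66, 3.64 and 3.23 (PDGFA). In 7 of the 9 tumours the ratio was thus under that of every normal brain, with IDH1_R132H tumours 1 and 2 as the exceptions.

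Of the SOX factors, Sox10 (chromosome 15, 79154908 to 79165240) was at 16.6, 14.27 and 13.7 CPM in normal brain. It reached 132.5, 188 and 162 CPM (IDH1_R132H), 58.6, 179 and 88.4 (IDH1WT) and 38.6, 49.7 and 154 (PDGFA). Every tumour was above normal brain, by 2.91 on the log2 scale in the fit (SE 0.47, 7.53-fold, edgeR adjusted p = 0.015).

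Sox8 (chromosome 17, 25565892 to 25570686) had a higher level in normal brain, 37.3, 40.8 and 31.2 CPM, and a smaller difference. Its tumour values were 125, 195 and 61.8 CPM (IDH1_R132H), 66.5, 157 and 91.6 (IDH1WT) and 38.7, 72.3 and 72.4 (PDGFA). PDGFA tumour 1 lay inside the normal range and the other 8 tumours above it. The log2 difference of 1.36 (SE 0.35) had an edgeR adjusted p of 0.045, and limma on the deposited log2 values gave adjusted p = 0.061. The call was also lost without any one of IDH1_R132H tumours 1 or 2, IDH1WT tumours 2 or 3 or PDGFA tumour 2 (edgeR adjusted p from 0.056 to 0.067). An antisense gene, 2810468N07Rik, shares 329 exon bases with Sox8 and rose too (log2 1.05, edgeR adjusted p = 0.049). The counting's strand setting is not given in the sources used here, so reads of this pair cannot be told apart there.

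The ratio of Sox10 to Sox8 differed between tissues. Per kb, Sox10 over Sox8 was 0.456, 0.357 and 0.451 in the normal brains. The same ratio was 1.08, 0.99 and 2.68 (IDH1_R132H), 0.901, 1.161 and 0.986 (IDH1WT) and 1.02, 0.703 and 2.17 (PDGFA). All 9 tumours thus had a higher ratio than any normal brain, though Sox8 still exceeded Sox10 in 4 of them (IDH1_R132H tumour 2, IDH1WT tumours 1 and 3 and PDGFA tumour 2). This ratio does not depend on library scaling. It is given as a description, with no test.

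Among the remaining factors that rose, Zfp488 (chromosome 14, 33967070 to 33978764) had the largest fold difference of the 9. Normal brains 1 to 3 held 1.62, 1.65 and 1.4 CPM of it, on only 14, 15 and 16 reads. The tumours held 41.4, 47.7 and 18.4 CPM (IDH1_R132H), 14, 42.9 and 32.7 (IDH1WT) and 4.47, 11.8 and 40.8 (PDGFA). The log2 difference was 4.13 (SE 0.71, edgeR adjusted p = 0.016). Zfp488 was last of the 9 per kb in normal brain, at 0.361 CPM per kb, and stood above Nkx6-2 in the mean of every tumour group. In single libraries Nkx6-2 was the higher per kb in IDH1WT tumour 1 and PDGFA tumours 1 and 2. It stood there at 3.3, 5.8 and 2.83 CPM per kb, against 3.25, 1.04 and 2.74 for Zfp488.

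Nkx2-2 (chromosome 2, 147177546 to 147194243) stood at 3.69, 2.96 and 2.01 CPM in normal brain. Tumour levels were 25.3, 29.2 and 15.8 CPM (IDH1_R132H), 11.6, 22.7 and 17 (IDH1WT) and 5.14, 10.4 and 19.3 (PDGFA), all above normal brain. The fitted difference was 2.54 in log2 units (SE 0.42, edgeR adjusted p = 0.015). The antisense gene Nkx2-2os, which shares 278 exon bases with it, reached at most 1.95 CPM in any library. In normal brains 1 to 3 Nkx2-2os was at 0.693, 1.65 and 0.35 CPM. The part of its reads in the Nkx2-2 values was not tested.

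Myt1 (chromosome 2, 181763332 to 181827797) was at 53.9, 45.2 and 41.3 CPM in normal brain. In tumours it was at 175, 234 and 96.3 CPM (IDH1_R132H), 87.3, 258 and 122 (IDH1WT) and 98, 75.7 and 190 (PDGFA). Unlike for the other factors that rose, the lowest tumour was PDGFA tumour 2 and not PDGFA tumour 1. The difference of 1.65 in log2 units (SE 0.39, 3.14-fold) had an edgeR adjusted p of 0.033, and 0.057 without IDH1_R132H tumour 2.

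Myrf and Nkx6-2, the factors of the myelinating stage, passed edgeR's test, with the low count filter and all 12 libraries, in none of the comparisons. Myrf (chromosome 19, 10208272 to 10240748) was at 56.1, 51 and 47.5 CPM in normal brain. It was at 53.4, 51.7 and 36.5 CPM (IDH1_R132H), 62.4, 42.9 and 78.4 (IDH1WT) and 81.7, 56.8 and 53.9 (PDGFA). Of the 9 tumours 4 were above and 2 below the range of normal brain. The log2 difference was 0.15 (SE 0.19, edgeR adjusted p = 0.69).

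Nkx6-2 (chromosome 7, 139579376 to 139582797) had the fewest reads of the factors over all libraries, 634, with 9 to 99 a library. It stood at 5.54, 5.05 and 8.31 CPM in normal brain. The tumours had 2.32, 3.26 and 1.78 CPM (IDH1_R132H), 6.3, 3.05 and 5.65 (IDH1WT) and 11.1, 5.39 and 3.9 (PDGFA). The tumour to normal log2 difference of -0.52 (SE 0.33) did not pass (edgeR adjusted p = 0.36). All 3 IDH1_R132H tumours lay under all 3 normal brains, which holds for 18.8% of all genes. The log2 difference was -1.33 (SE 0.44, edgeR adjusted p = 0.081). DESeq2 gave adjusted p = 0.04, limma voom with sample quality weights 0.014 and limma on the deposited log2 values 0.11. This difference was called in 4 of 18 alternatives. The gene Inpp5a on the other strand shares 246 exon bases with Nkx6-2, of the 1907 that Nkx6-2 has. Inpp5a stood at 76.9, 74.7 and 86.6 CPM in normal brain, 44.8, 34.5 and 47.2 in the IDH1_R132H tumours and 98.6 in PDGFA tumour 1, where Nkx6-2 was highest as well. The part of Inpp5a reads in the Nkx6-2 values was not tested.

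The level of Olig2 relative to Myrf can be compared within a library. It is a ratio of RNA levels in bulk tissue, and the balance of precursor to myelinating cells was not tested. Per kb, Olig2 over Myrf was 0.773, 0.64 and 0.742 in the normal brains, so that Myrf exceeded Olig2 in each. The ratio was 8.46, 12.3 and 12 (IDH1_R132H), 3.71, 14.9 and 4.18 (IDH1WT) and 1.1, 3.83 and 9.77 (PDGFA). Olig2 exceeded Myrf in all 9 tumours, by the least in PDGFA tumour 1. Before division by length, Myrf was the higher there, at 81.7 CPM against 26.6 for Olig2. The lengths join all GENCODE exons of a gene, 8562 bases for Myrf and 2530 for Olig2, so the order in that library depends on them.

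**Figure D2:**
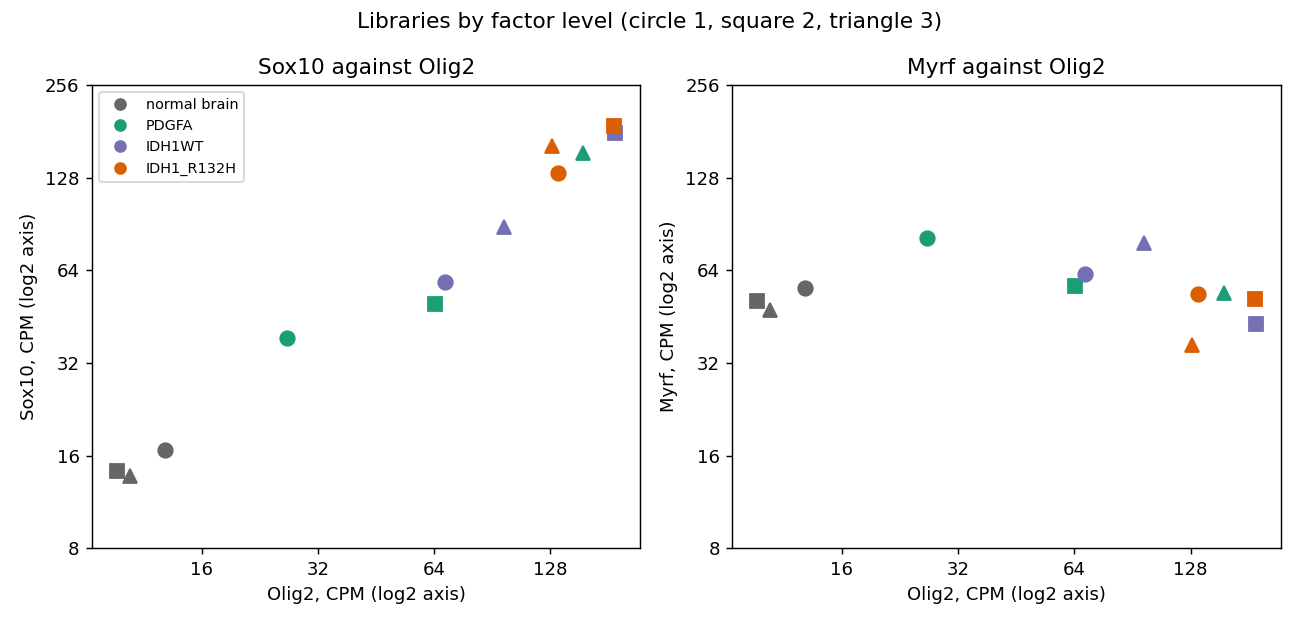
Sox10 (left) and Myrf (right) against Olig2 in each of the 12 libraries, in CPM on log2 axes, coloured by group. Sox10 follows Olig2 from the normal brains to the tumours, whereas Myrf stays between 36.5 and 81.7 CPM over the whole range of Olig2.

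The order of the factors per kb differed between normal brain and tumours. In normal brain it was Olig1, Sox8, Myt1, Myrf, Sox10, Olig2, Nkx6-2, Nkx2-2 and Zfp488, from 24.9 down to 0.361 CPM per kb, and the ranges of Myt1 and Myrf, of Sox10 and Olig2 and of Olig2 and Nkx6-2 overlapped. In the IDH1_R132H tumours the order was Olig1, Olig2, Sox10, Sox8, Myt1, Zfp488, Nkx2-2, Myrf and Nkx6-2. Neighbours from Olig2 to Myt1 and from Zfp488 to Myrf had overlapping ranges there. IDH1WT and PDGFA tumours had the same first 5 factors in the same order, followed by Myrf, Zfp488, Nkx2-2 and Nkx6-2. Neighbours from Olig2 to Myt1 and from Myrf to Nkx2-2 overlapped in IDH1WT tumours, and in PDGFA tumours all neighbours but Myt1 and Myrf did.

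Each tumour group was then compared with normal brain. The 3 comparisons share the normal brains, so their values are given side by side. In the IDH1_R132H tumours 7 of 9 factors were called, all higher, where 4.83% of all genes were called higher, 2.35% lower and 7.17% either way. Of the 9, 5 were called in the IDH1WT tumours (1.57% of all genes higher, 1.72% either way) and 0 in the PDGFA tumours (0.258% higher, 0.303% either way). The 5 are Olig1, Olig2, Sox10, Nkx2-2 and Zfp488. At an unadjusted p under 0.05, edgeR had 6 factors in the PDGFA group beside 10.6% of all genes, and DESeq2 called 6 after adjustment, among 476 genes where edgeR called 54. For 6 factors (all but Sox8, Nkx6-2 and Myrf) every PDGFA tumour stood above every normal brain, as for 8.23% of all genes.

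The fitted log2 differences from normal brain in IDH1_R132H, IDH1WT and PDGFA tumours were 3.78, 3.42 and 2.91 for Olig2. They were 3.55, 2.95 and 2.1 for Olig1 and 3.44, 2.86 and 2.44 for Sox10. For Zfp488 they came to 4.53, 4.25 and 3.61, with SEs of 0.76 to 0.77. PDGFA tumours did not pass for Olig2 by a small margin (edgeR adjusted p = 0.0502). PDGFA tumour 1 was the lowest PDGFA library in 6 of the 7 factors that rose. Without it, Olig1, Olig2, Sox10, Nkx2-2 and Zfp488 were called in the PDGFA group (edgeR adjusted p from 0.0037 for Olig2 to 0.0097 for Olig1), while the calls over all genes went from 54 to 828. Without IDH1_R132H tumour 2 or IDH1WT tumours 2 or 3, 0 factors were called in the group that lost the library, and 1, 0 and 0 of all genes.

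**Figure D3:**
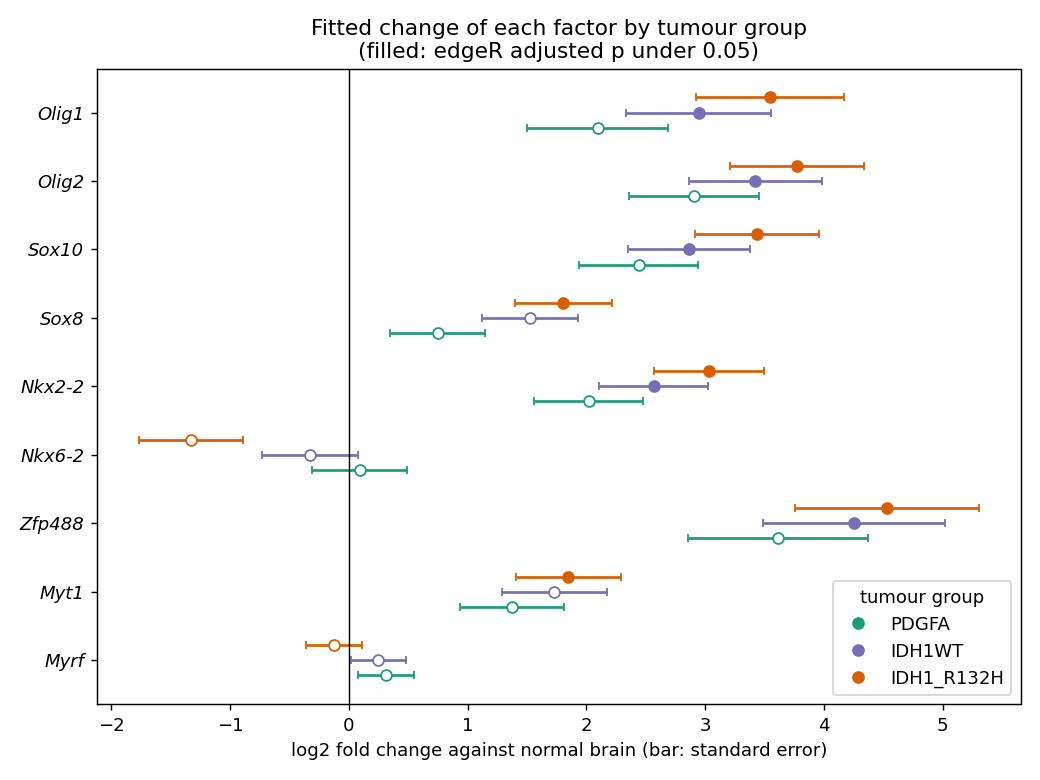
Fitted log2 fold change of each factor against normal brain in the 3 tumour groups, with standard errors as bars. Filled points have an edgeR adjusted p under 0.05: 7 factors in IDH1_R132H, 5 in IDH1WT and 0 in PDGFA tumours.

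Whether the factors differ between tumour genotypes was tested directly. In each of the comparisons IDH1_R132H against IDH1WT, IDH1_R132H against PDGFA, IDH1WT against PDGFA and IDH1_R132H against the other tumours, edgeR called 0 of 9 factors and 0.0% of all genes. The factors with an unadjusted p under 0.05 numbered 1, 4, 0 and 1 in that order, beside 2.67%, 10.9%, 5.83% and 6.44% of all genes, and DESeq2 called 0 in each. Between IDH1_R132H and IDH1WT tumours the log2 differences were 0.35 for Olig2 (SE 0.5), 0.6 for Olig1 (SE 0.57), 0.57 for Sox10 (SE 0.47) and -1.01 for Nkx6-2 (SE 0.44). Each had an edgeR adjusted p of 0.9996, which does not show that the levels were alike.

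The widest differences between genotypes were those of IDH1_R132H and PDGFA tumours. Olig1 was higher in IDH1_R132H by 1.45 (SE 0.58), Sox8 by 1.06 (SE 0.4) and Nkx2-2 by 1.02 (SE 0.41), and Nkx6-2 differed by -1.42 (SE 0.44), with edgeR adjusted p of 0.41, 0.39, 0.42 and 0.33. Nkx6-2 and Myrf were the 2 factors whose ranges did not overlap, lower in every IDH1_R132H tumour than in every PDGFA tumour, which holds for 7.25% of all genes. limma voom with sample quality weights called 3 factors higher in this comparison, Olig1, Sox10 and Nkx2-2 (adjusted p = 0.045, 0.045 and 0.04), with weights of 3.19 for IDH1_R132H tumour 2 and 0.327 for PDGFA tumour 1. It called 396 genes in all. edgeR without the filter on low counts called 6, with Sox8, Olig2 and Nkx6-2 (lower) added to those 3, among 627 genes.

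The spread among tumours was wide and shared. Over the 9 tumours the highest level was 13.8 times the lowest for Olig1, 10.7 for Zfp488, 7.08 for Olig2, 3.41 for Myt1 and 2.24 for Myrf. IDH1_R132H tumour 2 or IDH1WT tumour 2 was the highest tumour in each of the 7 factors that rose. Pearson's r of log2 CPM over the 9 tumours was between 0.71 and 0.98 for the 21 pairs among those 7, and between -0.85 and -0.33 for the 14 pairs of 1 of them with Myrf or Nkx6-2. For Olig2 it was 0.95 with Sox10, 0.96 with Nkx2-2, -0.7 with Myrf and -0.83 with Nkx6-2, and Myrf and Nkx6-2 had r = 0.88. Without PDGFA tumour 1 the ranges over pairs were 0.55 to 0.98 and -0.76 to -0.05. These values describe 9 libraries that share tissue makeup and scaling.

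The genes outside the 9 whose pattern over the 9 tumours was most like that of Olig2, of 10174 genes ranked, were Reep3 (r = 0.997), Fgfrl1 (0.989), Eif4g2 (0.988), Cdc42se1 (0.987) and Vezf1 (0.986). Reep3 and Fgfrl1 were also among the first 5 without PDGFA tumour 1. For Myrf they were Dock5 (0.965), Baz2b (0.958), Ppp1r16b (0.953), Aebp2 (0.947) and Tfdp2 (0.944), of which Dock5, Ppp1r16b and Aebp2 stayed among the first 5 without PDGFA tumour 1.

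Of 48 other regulators of the lineage 47 were tested. In tumours against normal brain 8 were called higher and 0 lower, beside 3.71% and 1.5% of all genes. The median log2 change was 0.16. The 8 include the SOX factors Sox3 (log2 4.71, SE 0.88), Sox4 (2.02), Sox6 (2.31) and Sox11 (1.51), which act in neural progenitors and precursors. Among the rest are the homeobox gene Gsx1 (4.8, SE 0.96), the ETS factor Etv4 (2.36) and the nuclear factor Nfia (0.94). Their edgeR adjusted p ran from 0.017 (Sox3) to 0.049 (Nfia). Sox3 and Gsx1 were near 0 in normal brain, at 0.251 ± 0.259 and 0.216 ± 0.122 CPM (SD, n = 3), against 7.05 ± 4.2 and 6.31 ± 3.8 in tumours (n = 9). In IDH1_R132H tumours 9 were called (Sox5 was added, 0.94), in IDH1WT tumours 2 (Sox3 and Gsx1) and in PDGFA tumours 0. Of all genes, 4.83%, 1.57% and 0.258% were called higher in these groups.

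Of the genes of the precursor stage, among them surface and matrix proteins, 14 of 19 were called higher, beside 3.71% of all genes. Their median log2 change was 2.47. The change was 3.88 for Cspg4, which encodes the NG2 proteoglycan (SE 0.63, edgeR adjusted p = 0.015), and that of the Notch ligand gene Dll3 was 5.25 (SE 0.87, 0.016). Pdgfra, the PDGFA receptor, rose by 3.93 (SE 0.68, 0.016) and the channel subunit gene Cacng4 by 2.47 (SE 0.45, 0.017). By group, 16 were called in IDH1_R132H, 9 in IDH1WT and 1 (Dll3) in PDGFA tumours. The shares of all genes called higher there were 4.83%, 1.57% and 0.258%. This list, like the others, was chosen with earlier results of these data known, so these counts are not independent of them.

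Myelin genes had a median of -0.04, with 1 of 24 called, beside 5.22% of all genes in either direction. The 1 is the galactolipid enzyme gene Ugt8a (0.92, SE 0.23, edgeR adjusted p = 0.042). The tight junction gene Cldn11 (0.86, 0.095), the matrix link gene Hapln2 (-0.81, 0.1) and Cnp, a myelin enzyme gene (0.61, 0.1), had the next smallest p. The median of the 24 was -0.48 in IDH1_R132H, -0.17 in IDH1WT and 0.55 in PDGFA tumours. In IDH1_R132H tumours 0 were called higher, beside 4.83% of all genes, and 1 lower, beside 2.35%. The 1 is Hapln2, lower by 1.81 (SE 0.38, edgeR adjusted p = 0.021).

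**Figure D4:**
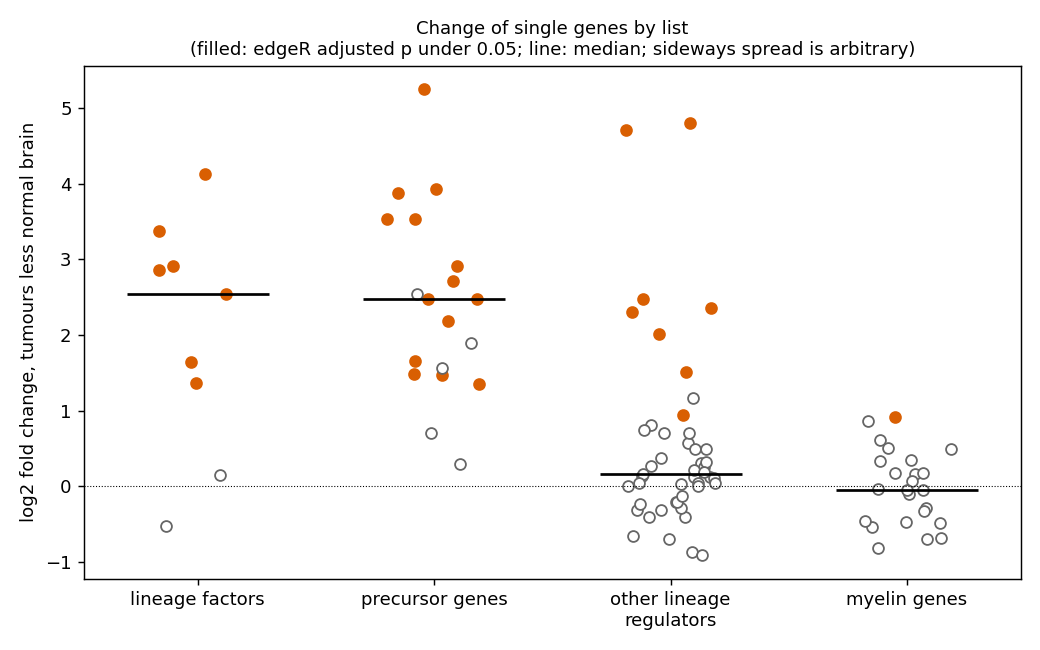
Log2 fold change of single genes, tumours less normal brain, in 4 lists, with the list median as a line and filled points at edgeR adjusted p under 0.05. The medians are 2.54 for the 9 factors, 2.47 for precursor genes, 0.16 for other lineage regulators and -0.04 for myelin genes.

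Summed marker levels are RNA levels weighted to the most abundant genes of each list, and cell numbers were not measured. The summed level of the 19 precursor genes was 1251 to 1259 CPM in normal brain, 4577 to 9731 (IDH1_R132H), 3493 to 8572 (IDH1WT) and 1102 to 5935 (PDGFA). The sum of the 24 myelin genes was 4133 to 4291 CPM in normal brain, 3005 to 3613 (IDH1_R132H), 2837 to 4642 (IDH1WT) and 3871 to 12590 (PDGFA). PDGFA tumour 1 held the highest myelin sum (12590) and the lowest precursor sum (1102), and it also had the highest Myrf and Nkx6-2 and the lowest Olig2 of the tumours. The 15 neuron markers summed to 8423 to 8830 CPM in normal brain, 4783 to 9182 (IDH1_R132H), 4187 to 7376 (IDH1WT) and 4554 to 10010 (PDGFA). The 14 astrocyte markers summed to 6626 to 6712 CPM in normal brain and 1406 (PDGFA tumour 1) to 7951 in tumours. The 15 microglia and macrophage markers summed to 140 to 243 CPM in normal brain and 47.9 (PDGFA tumour 1) to 501 in tumours, and the 12 endothelial markers to 199 to 223 and 251 to 406. In these lists no marker was at 0 over a group. Against normal brain 1 of 14 astrocyte, 0 of 15 neuron, 0 of 15 microglia and 6 of 12 endothelial markers were called, all higher. Over all genes 3.71% were called higher in the same comparison.

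Sox10 also marks Schwann cells and melanocytes outside the brain's own glia. The 10 markers of those cells summed to 39.5 to 46.9 CPM in normal brain and 50.6 to 115 in tumours. Pmp2 had 0 reads in every library and Tyrp1 at most 6. Of 7 tested, 1 was called (Pmp22, log2 1.1, edgeR adjusted p = 0.047), beside 3.71% of all genes called higher. The part that tissue makeup has in the changes of the 9 factors was not tested.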

How the data were processed

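RNA was extracted from formalin-fixed, paraffin-embedded mouse brain per the labels' protocols, by the RecoverAll method. The authors deposited raw read counts per Ensembl gene for 12 libraries and a table of log2 values (regularized log). The submitters' processing notes name STAR 2.5.2b, Subread featureCounts 1.5.1, DESeq2 1.16.1 and GRCm38; which annotation, strandedness and multimapping rule they used is not stated in what was read here. Symbols came from GENCODE M21, which named 49412 of 49671 genes. Groups were taken from the labels, and libraries are numbered in accession order, which pairs nothing.

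Counts were fitted with edgeR 4.0.16 in R 4.3.3 (TMM scaling, filterByExpr with a minimum count of 10 and a total of 15, robust quasi-likelihood test) over all 12 libraries, which leaves 8 residual degrees of freedom. Each of the 8 comparisons was adjusted by Benjamini-Hochberg over 17812 genes, with calls at 0.05. The common biological coefficient of variation was 26.5%. Alternatives were RLE scaling, no low count filter, DESeq2 1.42.0, limma 3.58.1 on the deposited log2 values, limma voom with sample quality weights, and each library left out. A fit with neither IDH1_R132H tumour 3 nor PDGFA tumour 1 was chosen after seeing the data. The scripts were tested on simulated data.

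The 9 factors and the gene lists were chosen with earlier results of these data known. All 9 are described; the text also names other lineage regulators called in tumours against normal brain, and the 4 precursor and 4 myelin genes with the smallest p there. Sox5, Pmp22, Pmp2, Tyrp1 and the genes that overlap a factor were named after their values were seen. Genes like Olig2 and Myrf are the 5 with the highest Pearson's r of log2 CPM over the 9 tumours, among genes with a mean log2 CPM of at least 3 and a symbol that is not a gene model. Promoter windows are RefSeq's on GRCm38.p6. A further floxed gene of these mice and some genes of the lists are not reported here.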

Additional observations from a re-analysis of the deposited data

How the results depend on the processing

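No paired analysis was possible because the labels give the groups no shared replicate numbers. The number of the 9 factors called, which was 7, 7, 5 and 0 for all, IDH1_R132H, IDH1WT and PDGFA tumours against normal brain, ran over the fits that leave out 1 library from 0 to 7, 0 to 8, 0 to 7 and 0 to 5. It was 0 without any one of the normal brains. Of the 4 comparisons between tumours, each had 0 in all of those fits. In IDH1WT tumours against normal brain limma on the deposited log2 values called 3 (83 of all genes). In PDGFA tumours against normal brain RLE scaling called 1, no low count filter 6, DESeq2 6, limma voom with sample quality weights 5, and the fit without IDH1_R132H tumour 3 and PDGFA tumour 1 also 5. Over all genes these fits called 70, 958, 476, 436 and 970, against 54. No low count filter and voom called 6 and 3 in IDH1_R132H against PDGFA tumours and 3 and 1 in IDH1_R132H against the other tumours, among 627, 396, 278 and 245 genes. In each of these the cause was not tested.

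Some small log2 differences changed sign, none of them called by edgeR with all libraries. Over the fits that leave out 1 library, Myrf in IDH1_R132H tumours against normal brain ran from -0.218 to 0.009 (above 0 without IDH1_R132H tumour 3). Nkx6-2 in PDGFA tumours against normal brain ran from -0.441 (without PDGFA tumour 1) to 0.372. Between IDH1_R132H and IDH1WT tumours, Sox8 ran from -0.162 (without IDH1_R132H tumour 2) to 0.691, Zfp488 from -0.056 (without IDH1WT tumour 1) to 0.631 and Myt1 from -0.193 (without IDH1_R132H tumour 2) to 0.69. Between IDH1WT and PDGFA tumours, Sox10 ran from -0.135 to 1.271 and Myt1 from -0.216 to 0.817, both lowest without IDH1WT tumour 2. There Nkx6-2 ran from -0.701 to 0.11 and Myrf from -0.296 to 0.135, both highest without PDGFA tumour 1. Myt1 in IDH1_R132H against the other tumours ran from -0.025 (without IDH1_R132H tumour 2) to 0.582. Without both IDH1_R132H tumour 3 and PDGFA tumour 1, Myrf in IDH1_R132H tumours was 0.033 and Nkx6-2 in PDGFA tumours -0.434 against normal brain, and between IDH1WT and PDGFA tumours they were 0.144 and 0.119. With voom, Nkx6-2 in PDGFA tumours against normal brain was -0.002 and Myrf between IDH1WT and PDGFA tumours 0.114.

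Against normal brain in all tumours, Olig1, Olig2, Sox10, Nkx2-2 and Zfp488 were called in 15 of 18 alternatives, Myt1 in 14 and Sox8 in 9. Nkx6-2, with 9 to 99 reads a library, is the factor with the fewest reads over all 12 libraries. In normal brains 1 to 3, Zfp488 (14, 15 and 16 reads) and Nkx2-2 (32, 27 and 23) had fewer than Nkx6-2 (48, 46 and 95).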

Other observations

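The ratio of the homeodomain factors Nkx2-2 and Nkx6-2, both per kb, was 0.442, 0.389 and 0.161 in the normal brains. It was 7.26, 5.95 and 5.9 (IDH1_R132H), 1.22, 4.93 and 2 (IDH1WT) and 0.308, 1.28 and 3.29 (PDGFA). The ratio in PDGFA tumour 1 lay inside the range of normal brain, and the other 8 tumours stood above that range. Sox10 over Myrf, per kb, was 0.785 to 0.832 in normal brain and from 1.32 in PDGFA tumour 1 to 12.4 in IDH1_R132H tumour 3. These ratios do not depend on library scaling and carry no test. The summed level of the 9 factors was 216 to 240 CPM in normal brain and 365 CPM (PDGFA tumour 1) to 1771 CPM (IDH1_R132H tumour 2) in tumours.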
